A study of Caenorhabditis elegans with 18 samples.

Results

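Neuropeptide and insulin-like peptide genes encode the secreted signals of the C. elegans nervous system and of several other tissues. The members described here were the genes whose WormBase symbol is flp, nlp or ins with a number, together with *daf-28*, leaving out the epidermal antimicrobial genes *nlp-27* to *nlp-31* and *nlp-34*. Of 24998 genes in the table, 134 carried such a symbol, and 95 of these had a mean normalized count of at least 10 over the 18 libraries (30 of 31 flp genes, 49 of 64 nlp genes and 16 of 39 ins genes, *daf-28* included). Of the other 39, 1 was an flp gene, and their means lay between 0.0965 and 9.97. Members nearest that limit were *ins-26* at a mean of 10.5 and *nlp-81* at 11.4 inside it, and *nlp-52* at 9.97 and *ins-28* at 9.55 outside it. A further symbol that fits the rule, *nlp-22*, was not analysed here.

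The mRNA of whole hermaphrodites at day 1 of adulthood was sequenced in 6 genotypes with 3 libraries each: *lin-29*(n333); *fbxl-5*(rhd43) (strain DLS492), *lin-29*(n333) (MT333), *rict-1*(mg360); *fbxl-5*(rhd43) (DLS491), *rict-1*(mg360) (DLS490), *fbxl-5*(rhd43) (DLS316) and the wild-type strain N2. Every culture was started from larvae synchronized at the first stage and kept for about 72 hours at 20°C on E. coli OP50 with 5000 animals per plate, and the study's methods call the 3 libraries of a genotype independent biological replicates. Each mutant is represented by 1 strain. *fbxl-5* encodes an F-box protein with leucine-rich repeats, and its allele introduces a premature stop codon, while the *rict-1* allele changes an amino acid. *lin-29* encodes a zinc finger transcription factor that drives the larval to adult switch of the epidermis, and *rict-1* encodes Rictor, the defining subunit of the TOR complex mTORC2. The comparisons ask how loss of each gene alters peptide gene expression, and whether loss of *fbxl-5* acts differently in *lin-29* or *rict-1* animals than in animals that carry neither mutation.

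Peptide precursors are cut and amidated in the secretory pathway and released from dense core vesicles. The flp genes encode FMRFamide-like peptides, which act mostly between neurons through G protein-coupled receptors, and the nlp genes encode a mixed group of other neuropeptide precursors. The ins genes and *daf-28* encode insulin-like peptides that act on 1 insulin receptor, DAF-2, some as agonists that favour growth and reproduction and others as antagonists. RNA came from whole animals, so that fewer cells making a peptide and less RNA per cell cannot be told apart.

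Between 13434120 and 29733059 reads were counted on genes per library, of which the 95 members took between 7777 and 20115. In *fbxl-5* replicate 3, 29.98% of these reads fell on ribosomal RNA genes, against at most 4.49% in any other library. The *fbxl-5* transcript lay between 138 and 141 normalized counts in the *fbxl-5* libraries and between 86.5 and 110.1 in wild-type, with at least 173 in every library of the other 4 genotypes, and the *lin-29* and *rict-1* transcripts were also present in their mutants, so these levels do not test the labels. Summed over 14 pan-neuronal genes, the level lay between 6190.9 and 6715 in *fbxl-5*, between 6202 and 6535 in *rict-1* and between 6425 and 6575 in wild-type. The pan-neuronal sum was higher in every *lin-29* library (6780 to 7833) and every *lin-29; fbxl-5* library (7504 to 8708) than in any wild-type library. In *rict-1; fbxl-5* it lay between 6258 and 6818. Markers of other tissues also differed between genotypes. The sum of 7 intestinal markers lay between 141064 and 152015 in *rict-1; fbxl-5*, between 189371 and 221538 in *rict-1* and between 56633 and 69510.4 in wild-type. *asp-1* weighs most in this sum, with a mean of 75079 over all libraries, against at most 8438 for the other intestinal markers. Of 5 body muscle markers 4 were called higher in *lin-29* than in wild-type, where 22.6% of all genes were called higher. In *lin-29* the sum of 10 germline and oocyte markers lay between 110449 and 121160, against 137896 to 166640 in wild-type. The sum of 8 early embryo markers lay between 54.1 and 125 in *lin-29; fbxl-5* and between 70.7 and 100.4 in *lin-29*. In wild-type it lay between 186 and 235.3. Of the 7 tested 5 were called lower in *lin-29; fbxl-5* (19.5% of all genes) and 3 in *lin-29* (18.4% of all genes). The sum of 7 sperm markers lay between 301 and 495 in *lin-29; fbxl-5* and between 257 and 596 in *lin-29*. In wild-type it lay between 123 and 178. Of the 6 tested 3 were called higher in *lin-29; fbxl-5* (19.5% of all genes) and 2 in *lin-29* (22.6% of all genes). The part of these markers in the peptide results was not tested.

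A pair of libraries, *lin-29* replicate 3 and *lin-29; fbxl-5* replicate 1, stood apart from the others of their genotype in the members' own values. Of the 95 members, 39 were more than 1 log2 unit below the mean of the other libraries in *lin-29* replicate 3, against 12.6% of the other genes tested. In *lin-29; fbxl-5* replicate 1 it was 37 members, against 9.5% of the other genes, and in the remaining 16 libraries it was at most 7 members. The same libraries held the highest *fbxl-5* transcript levels of all 18, with 755, 374 and 306 normalized counts in *lin-29; fbxl-5* replicates 1, 2 and 3 and 312, 331 and 551 in *lin-29* replicates 1, 2 and 3. Both libraries were kept in the fit, which estimated a shared spread from all 18 libraries, so that their distance from the others entered the error of every comparison. Counts without both are given with each comparison. That setting was added after the values were seen.

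In wild-type, nlp genes held the highest levels per kb of exon. *nlp-40*, an intestinal peptide that times defecation, averaged 2932 normalized counts per kb, *nlp-36* 2813, the opioid-like *nlp-24* 2341 and the epidermal *nlp-33* 2172. Among the flp genes the highest were *flp-6* at 634 per kb, *flp-14* at 513, *flp-28* at 436 and *flp-22* at 344. The insulin-like genes lay lower, led by *ins-34* at 147 per kb, *ins-17* at 122, *ins-6* at 64.2 and *daf-28* at 59.2. Exons of *nlp-36* overlap those of *dars-1* on the opposite strand, and exons of *ins-34* overlap those of *nkcc-1*, both more abundant. The library kit does not mark strand, so reads of such genes and of their partners cannot be told apart.

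Summed over its members, each prefix had its lowest genotype mean in *fbxl-5*. The flp sum lay between 2524 and 2928 normalized counts in *rict-1; fbxl-5*, between 2035 and 2707 in *rict-1*, between 1969 and 2213 in *fbxl-5* and between 2843 and 3449.8 in wild-type. The insulin sum lay between 657 and 1199.9 in *lin-29; fbxl-5*, between 587 and 832 in *lin-29*, between 242 and 287 in *fbxl-5* and between 363 and 419.8 in wild-type. The *fbxl-5* and wild-type libraries did not overlap in any of the 3 sums. Of the 95 members, 64 had their lowest genotype mean in *fbxl-5*, against 18.1% of all genes tested, and 41 had their highest in *lin-29; fbxl-5*, against 15.2%.

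**Figure D1:**
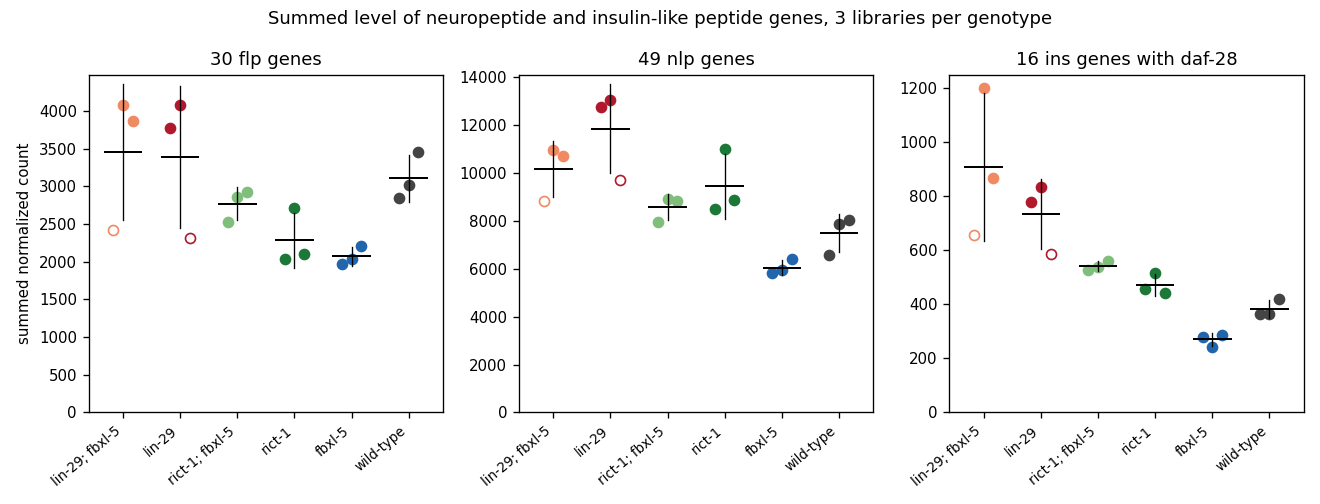
Summed normalized counts of the 30 flp, 49 nlp and 16 ins genes (vertical axes, starting at 0) in the 3 libraries of each of 6 genotypes (horizontal axes). Points are libraries, bars are the mean and 1 SD, and open points are *lin-29* replicate 3 and *lin-29; fbxl-5* replicate 1. The 3 *fbxl-5* libraries lie below the 3 wild-type libraries in every panel, and the nlp sum is dominated by a few abundant genes.

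In animals lacking *fbxl-5* alone, the median log2 fold change over wild-type was negative for each of the 3 prefixes. Of the 95 members, 76 had a negative value and 19 a positive one. A gene was called where limma gave it a Benjamini-Hochberg adjusted p under 0.01 (1% FDR) across all 13472 genes tested. That held for 9 of the 95 members, 9 lower and 0 higher, against 2.56% of all genes, 1.97% lower and 0.586% higher. edgeR and DESeq2 also gave 0 higher members, and in limma 5 had a higher level at an unadjusted p under 0.05 and 48 a lower one. The called members were *flp-13*, *flp-14*, *flp-4*, *flp-12*, *flp-7*, *nlp-14*, *nlp-6*, *nlp-33* and *ins-1*. The median log2 fold change was -0.76 over the 30 flp genes, -0.72 over the 49 nlp genes and -0.73 over the 16 insulin-like genes, against -0.02 over all genes. In 57 of the 95 members all 3 *fbxl-5* libraries lay below all 3 wild-type libraries, which held for 21.6% of all genes, and in 9 above them (18.4% of all genes).

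*flp-13* encodes peptides that the ALA neuron releases during sleep brought on by stress. It had 8.03, 8.67 and 10.3 normalized counts in *fbxl-5* libraries, against 74.9, 60.9 and 70.9 in wild-type (log2 fold change -2.81 ± 0.60, adjusted p = 0.00942, where ± gives the standard error). The libraries were far apart, with little spread in either genotype, but the call was lost without each of the 6 libraries in turn (adjusted p up to 0.0443). It was also lost with a pseudocount of 5, TMM factors or a replicate block. *flp-14*, whose peptides are needed for sustained forward movement, had 44.98, 33.7 and 58.3 normalized counts in *fbxl-5*, against 213, 227 and 293 in wild-type (log2 fold change -2.42 ± 0.36, adjusted p = 0.000779). Its groups did not overlap either. *nlp-14*, which also takes part in sleep, fell to 26.5, 23.1 and 37.7 in *fbxl-5*, against 156, 126 and 164 in wild-type (log2 fold change -2.34 ± 0.36, adjusted p = 0.000832).

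The other 6 called members showed smaller differences. *ins-1*, an antagonist of DAF-2, had 4.82, 5.78 and 2.29 normalized counts in *fbxl-5*, against 19.9, 19.9 and 14.5 in wild-type (log2 fold change -1.90 ± 0.36, adjusted p = 0.00403). These are few reads, and the groups still lay apart. *flp-7*, a tachykinin-like signal to intestinal fat, had 32.9, 39.5 and 27.4 in *fbxl-5* and 79.5, 83.2 and 67.2 in wild-type, which gave -1.19 ± 0.21 with an adjusted p of 0.00228. For *flp-4*, *flp-12*, *nlp-6* and *nlp-33* the log2 fold changes were -1.41, -1.21, -1.33 and -1.16 (adjusted p = 0.0016, 0.00998, 0.00215 and 0.00308), and none of these genes overlapped between *fbxl-5* and wild-type. The *flp-12* call was lost without each of the 6 libraries in turn (adjusted p up to 0.0543). It was also lost in edgeR, with TMM factors, with a pseudocount of 5 and with no filter. The *flp-4* call was lost only without *fbxl-5* replicate 1, and those of *nlp-6* and *nlp-33* held in 2 of the 6 fits.

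Several members with large differences did not pass the 1% threshold. *flp-1*, a peptide gene of the AVK interneurons, had 30.5, 17.3 and 53.7 normalized counts in *fbxl-5*, against 160.2, 157 and 222 in wild-type (log2 fold change -2.50 ± 0.53, adjusted p = 0.0101), just outside it. *flp-18*, which encodes ligands of several NPR receptors, had 38.6, 49.1 and 51.4 in *fbxl-5* and 129, 149.9 and 198 in wild-type (log2 fold change -1.74 ± 0.38, adjusted p = 0.0106). For both genes the groups were well apart.

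Among the insulin agonists, *ins-6* had 4.82, 0 and 5.71 normalized counts in *fbxl-5*, against 31.6, 30.4 and 38.2 in wild-type (log2 fold change -3.33 ± 0.74, adjusted p = 0.0114). *daf-28* had 8.84, 9.63 and 14.9 in *fbxl-5* and 31.6, 52.7 and 51.8 in wild-type (log2 fold change -1.93 ± 0.61, adjusted p = 0.0582). Neither passed, although their libraries did not overlap and *ins-6* was at 0 in 1 *fbxl-5* library. The other fixed genes gave log2 fold changes of -1.47 for *flp-11* of the sleep neuron RIS, -0.78 for the NPR-1 ligand *flp-21*, -0.64 for *flp-2*, -1.59 for *nlp-3* of the egg-laying motor neurons, -1.92 for *nlp-49*, -0.84 for *nlp-8*, -0.89 for *nlp-24*, 0.59 for *nlp-12* and 0.22 for *nlp-40*, and none passed. Nor did *ins-3* (-1.20), *ins-4* (-1.57), *ins-7* (0.18), *ins-18* (-0.71) or *ins-35* (-0.91). Before normalization, *ins-23* had 27, 18 and 19 reads in *fbxl-5*, against 6, 9 and 10 in wild-type, a difference that was not called. Exons of *flp-11* overlap *tmem-135* on the opposite strand.

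The number called depended on which libraries set the spread. Fitted without the other 4 genotypes, 35 members were lower and 1 was higher, DESeq2 on the recovered reads gave 21 lower and 0 higher, and without both libraries that stood apart 33 were lower and 1 higher. Without *fbxl-5* replicates 1, 2 and 3 in turn the count was 2, 5 and 5, and without wild-type replicates 1, 2 and 3 it was 5, 3 and 4, and *flp-14* and *nlp-14* were called each time.

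**Figure D2:**
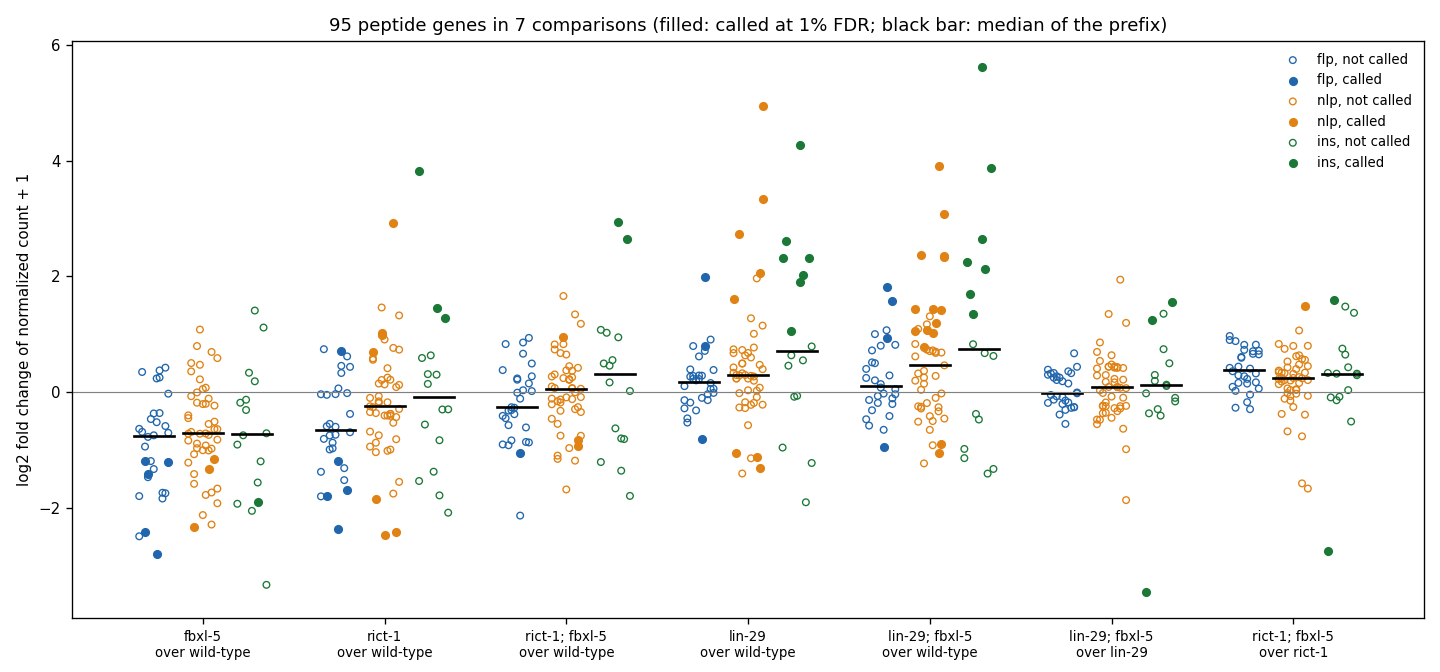
Log2 fold changes on the log2(normalized count + 1) scale (vertical axis) of the 95 members in 7 comparisons (horizontal axis), with flp, nlp and ins genes side by side from left to right. Points are genes, filled where limma called them at 1% FDR, and black bars are the median of the prefix. The medians lie near -0.7 for all 3 prefixes in *fbxl-5* over wild-type, and the largest positive values belong to ins and nlp genes in the *lin-29* mutants.

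**Figure D3:**
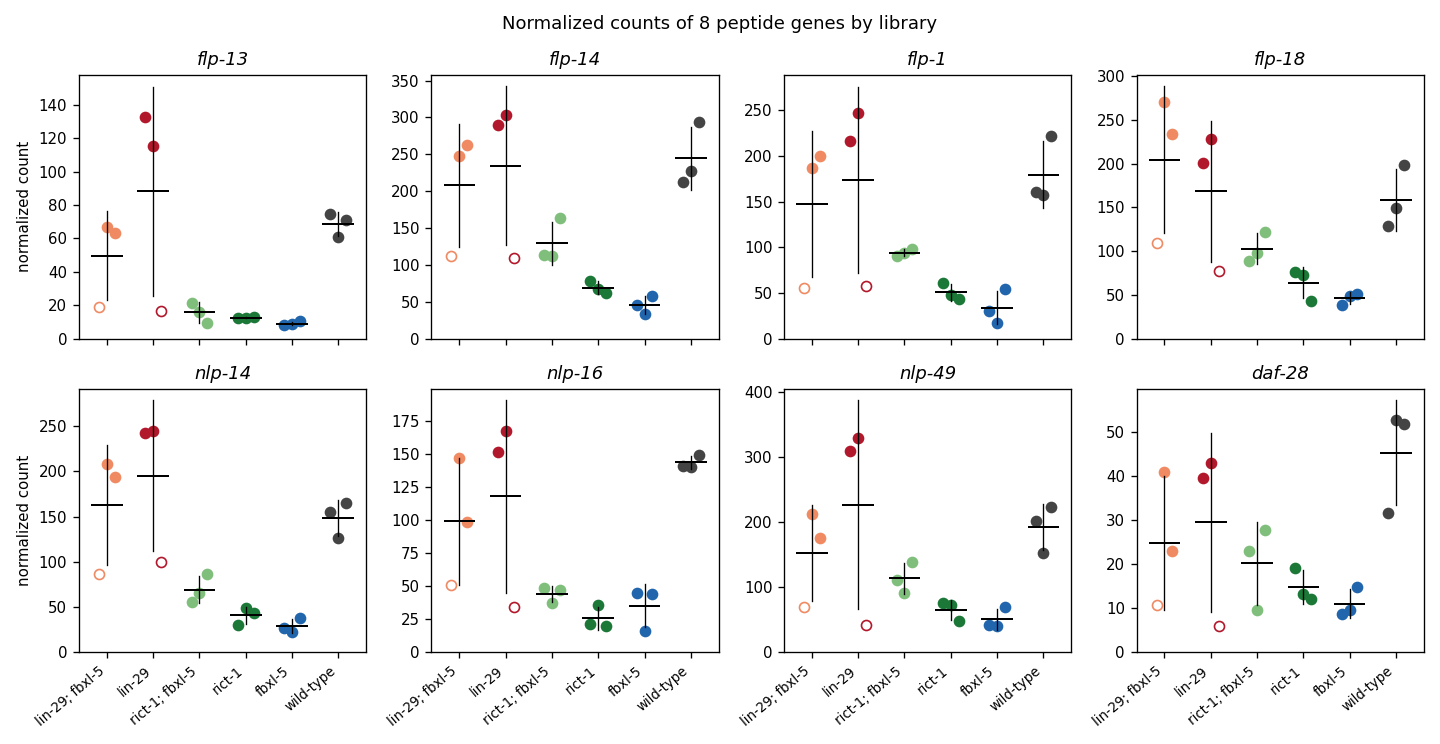
Normalized counts (vertical axes, starting at 0) of *flp-13*, *flp-14*, *flp-1*, *flp-18*, *nlp-14*, *nlp-16*, *nlp-49* and *daf-28* in each library of 6 genotypes (horizontal axes). Points are libraries, bars are the mean and 1 SD (n = 3), and open points are *lin-29* replicate 3 and *lin-29; fbxl-5* replicate 1. In all 8 genes the *fbxl-5* and *rict-1* libraries lie below the wild-type libraries, and the open points lie below the other libraries of their genotypes. These genes do not stand for all 95 members. Of the 95, 57 lay wholly below wild-type in *fbxl-5* and 9 above, and 40 below and 17 above in *rict-1*. *nlp-12* and *flp-34*, not shown, were highest in the libraries drawn as open points.

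Loss of *rict-1* changed 15 of the 95 members, 8 higher and 7 lower than wild-type, where limma called 16.4% of all genes (10.7% higher and 5.78% lower). Of 30 flp genes 4 fell and 1 rose, and of 49 nlp genes 3 fell and 4 rose. Of 16 insulin-like genes 3 rose, among them *ins-35*, which passed the filter on low counts only through *rict-1*. Of the insulin-like genes limma called 0 lower, edgeR 0 and DESeq2 2, and 5 were lower at an unadjusted p under 0.05 in limma. The members' median log2 fold change was -0.30 (-0.65 over flp genes), against -0.03 over all genes. All 3 *rict-1* libraries lay below all 3 wild-type libraries in 40 members, which held for 22.6% of all genes, and above them in 17 members (24.4% of all genes).

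The largest rise was that of *ins-35*, an insulin-like peptide made in the intestine. It had 85.7, 85.6 and 70.6 normalized counts in *rict-1*, against 3.51, 4.68 and 6.36 in wild-type (log2 fold change 3.83). Every *rict-1* value was over 10 times the highest wild-type value. *ins-35* passed the filter on low counts only through *rict-1*, so its place among the 95 was set by this genotype and the difference is a description. *ins-7*, an intestinal DAF-2 agonist, had 47.2, 37.4 and 53.4 in *rict-1* and 14.03, 17.6 and 16.4 in wild-type (log2 fold change 1.46 ± 0.35, adjusted p = 0.00473). *ins-23* had 20.99, 21.8 and 25.8 in *rict-1* and 7.02, 10.5 and 9.09 in wild-type (log2 fold change 1.28 ± 0.33, adjusted p = 0.00877), without overlap. The *ins-23* call was lost without each of the 6 libraries in turn (adjusted p up to 0.043). It was also lost in edgeR, in DESeq2, with a pseudocount of 5 and with no filter. The *ins-7* call was lost without every library except *rict-1* replicate 2 (adjusted p up to 0.024).

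Among the nlp genes, *nlp-40* had 3714, 4758 and 3912 normalized counts in *rict-1*, against 1841, 2213 and 2226 in wild-type (log2 fold change 0.98 ± 0.21, adjusted p = 0.00247). *nlp-36*, *nlp-79* and *nlp-39* also rose (log2 fold changes 0.68, 1.03 and 2.92 with adjusted p = 0.000907, 0.00111 and 0.0098). So did *flp-10*, which encodes ligands of the EGL-6 receptor that inhibits egg laying (0.71 ± 0.18, adjusted p = 0.00856). *nlp-39* had only 3, 2 and 0 reads in wild-type. Its call and that of *flp-10* were lost without each of the 6 libraries in turn (adjusted p up to 0.0536 and 0.0413), and that of *nlp-39* also in edgeR. Exons of *nlp-36* and *nlp-79* overlap more abundant genes on the opposite strand (*dars-1* and *crld-1*), so their values were uncertain. *ins-35*, *ins-7* and *nlp-40* are known from the intestine. Of the 7 intestinal markers 6 were higher in *rict-1*, and their part in this result was not tested.

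Of the members that fell, *nlp-51* had 16.6, 14.8 and 15.5 normalized counts in *rict-1*, against 87.7, 83.2 and 93.6 in wild-type (log2 fold change -2.42 ± 0.21, adjusted p = 4.9e-07). *nlp-16* had 21.9, 35.8 and 19.8 in *rict-1* and 142, 141 and 149.9 in wild-type (log2 fold change -2.48 ± 0.52, adjusted p = 0.00208). The spread within each genotype was small beside these differences. *flp-13* had 12.2, 12.5 and 12.9 in *rict-1* (log2 fold change -2.36 ± 0.60, adjusted p = 0.00748), *flp-14* had 78.7, 67.7 and 61.1 (log2 fold change -1.80 ± 0.36, adjusted p = 0.00146) and *nlp-14* had 30.6, 49.02 and 43.9 (log2 fold change -1.85 ± 0.36, adjusted p = 0.00104), against the wild-type values given above.

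These 3 genes were called lower in *fbxl-5* as well as in *rict-1*, and both comparisons used the same wild-type libraries. The *flp-13* call was lost in *rict-1* too without each of the 6 libraries in turn (adjusted p up to 0.029). *flp-6* of sensory neurons had 181, 233 and 191 normalized counts in *rict-1*, 483, 601 and 549.7 in *fbxl-5* and 413, 463 and 513 in wild-type. It fell in *rict-1* (log2 fold change -1.20 ± 0.23, adjusted p = 0.00105), while *fbxl-5* and wild-type overlapped (log2 fold change 0.23 ± 0.23, adjusted p = 0.593). *flp-8* fell as well in *rict-1*, by 1.69 on the log2 scale (adjusted p = 0.00578).

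Fitted on these 2 genotypes alone, 10 members were higher and 21 lower in *rict-1*, and without both libraries that stood apart it was 12 and 22. Without *rict-1* replicates 1, 2 and 3 in turn the count was 9, 9 and 8, and without wild-type replicates 1, 2 and 3 it was 9, 9 and 9, and 7 members were called each time (*ins-35*, *nlp-51*, *nlp-14*, *flp-14*, *flp-6*, *nlp-36* and *nlp-79*).

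In *rict-1; fbxl-5* animals limma called 3 members higher and 3 lower than wild-type, where 10.9% of all genes were called (7.36% higher and 3.56% lower), and the members' median log2 fold change was -0.01. All 3 libraries lay above wild-type in 21 members (23.1% of all genes) and below it in 29 (24.1% of all genes). *ins-7* had 152, 113 and 123 normalized counts in *rict-1; fbxl-5*, 47.2, 37.4 and 53.4 in *rict-1* and 14.03, 17.6 and 16.4 in wild-type (double mutant over wild-type: log2 fold change 2.93 ± 0.35, adjusted p = 2.09e-05). *ins-23* had 43.8, 81.5 and 61.6 in *rict-1; fbxl-5*, against 7.02, 10.5 and 9.09 in wild-type (log2 fold change 2.65 ± 0.33, adjusted p = 4.02e-05). Both genes lay above wild-type in all 3 libraries, and both calls held whichever library was left out.

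*nlp-79* rose too (0.95 ± 0.20, adjusted p = 0.00296), and *flp-6*, *nlp-51* and *nlp-33* fell (log2 fold changes -1.05, -0.94 and -0.83 with adjusted p = 0.0041, 0.00492 and 0.00982). *nlp-33* had 405, 411 and 438 normalized counts in *rict-1; fbxl-5*, against 656, 719 and 866 in wild-type, and the libraries lay apart. Its call and that of *flp-6* were lost without each of the 6 libraries in turn (adjusted p up to 0.0453 and 0.0208). The *nlp-33* call was also lost in edgeR, with TMM factors and with a replicate block. Of the 7 intestinal markers 5 were higher in *rict-1; fbxl-5* than in wild-type, and their part in the *ins-7* result was not tested. Without *rict-1; fbxl-5* replicates 1, 2 and 3 in turn the count was 3, 3 and 2, and without wild-type replicates 1, 2 and 3 it was 2, 2 and 3. Fitted on these 2 genotypes alone there were 10 higher and 14 lower members, and without both libraries that stood apart 8 and 10.

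Against *rict-1* alone, the double mutant had 2 members higher and 1 lower, where 1.39% of all genes were called (0.327% higher and 1.06% lower). *ins-22*, whose product is widely used to follow dense core vesicles, had 25.6, 29.8 and 27.01 normalized counts in *rict-1; fbxl-5* and 6.995, 12.5 and 6.89 in *rict-1* (log2 fold change 1.59 ± 0.29, adjusted p = 0.00418). *nlp-51* had 33.9, 53.2 and 52.3 in *rict-1; fbxl-5* and 16.6, 14.8 and 15.5 in *rict-1* (log2 fold change 1.49 ± 0.21, adjusted p = 0.00057). In both genes the libraries of the genotypes lay apart, higher in the double mutant.

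*ins-35* was lower in the double mutant, with 13.2, 12.1 and 8.44 normalized counts in *rict-1; fbxl-5*, against 85.7, 85.6 and 70.6 in *rict-1* (log2 fold change -2.75). Since *ins-35* passed the filter on low counts only through its *rict-1* level, this difference is a description. Of the 7 intestinal markers 2 were lower in the double mutant than in *rict-1*, and their part was not tested. The *ins-22* call was lost without each of the libraries except *rict-1* replicate 2 (adjusted p up to 0.0297), while that of *nlp-51* held. Replicate numbers paired the libraries of these 2 genotypes, and with the replicate number as a block in a fit of their 6 libraries 9 members were higher and 7 lower. Without both libraries that stood apart it was 4 and 3. All 3 double mutant libraries lay above all 3 *rict-1* libraries in 26 members, which held for 8.75% of all genes, and below them in 8 (13.2% of all genes). Over the 30 flp genes the median log2 fold change was 0.38, with 26 positive and 4 negative. limma, edgeR and DESeq2 called 0 of the 30, and 4 were higher at an unadjusted p under 0.05 in limma. The value was 0.88 ± 0.36 with an adjusted p of 0.281 for *flp-14* and 0.90 ± 0.53 with an adjusted p of 0.595 for *flp-1*.

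Whether loss of *fbxl-5* had a different effect in *rict-1* animals was tested by the interaction, the log2 fold change of *rict-1; fbxl-5* over *rict-1* minus that of *fbxl-5* over wild-type. It was called for 7 members, 7 positive and 0 negative, where 0.854% of all genes were called (0.631% positive and 0.223% negative). edgeR gave 0 negative members, DESeq2 gave 1, and 2 had an unadjusted p under 0.05 in limma. The largest values were those of *flp-14* (3.29 ± 0.51, adjusted p = 0.0022) and *nlp-14* (3.08 ± 0.51, adjusted p = 0.00331). *ins-22* and *nlp-51* followed (2.34 and 2.13 with adjusted p = 0.00462 and 0.000938). Both *flp-14* and *nlp-14* fell with loss of *fbxl-5* in the wild-type background, and in the *rict-1* background *nlp-14* had 56.2, 66.2 and 86.1 normalized counts in *rict-1; fbxl-5* and 30.6, 49.02 and 43.9 in *rict-1*, a difference that was not called (log2 fold change 0.74 ± 0.36, adjusted p = 0.411). The remaining 3 were *flp-12*, *flp-4* and *nlp-6*. The *flp-12* call was lost without each of the 12 libraries in turn (adjusted p up to 0.0338). It was also lost in edgeR, with TMM factors and with no filter. Those of *flp-4* and *nlp-6* held in 2 and 3 of the 12 fits.

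Of the 95 members, 61 had a negative log2 fold change in *fbxl-5* over wild-type and a positive one in *rict-1; fbxl-5* over *rict-1*, which is 64.2% of members against 26.6% of all genes. Taken singly, 76 members were negative in the first difference and 73 positive in the second. Across members the 2 log2 fold changes had Pearson's r = -0.0951 (0.0907 across all genes), so their sizes were not related gene by gene. The 2 differences have no library in common. Fitted on the 4 genotypes of the interaction, 31 members were called positive and 1 negative, with DESeq2 19 and 1, and without both libraries that stood apart 26 and 1. Leaving out single libraries gave as few as 2 calls (without *fbxl-5* replicate 1, wild-type replicate 3, *rict-1* replicate 1 or *rict-1; fbxl-5* replicate 3) and at most 6, and *flp-14* and *nlp-51* were called each time.

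**Figure D4:**
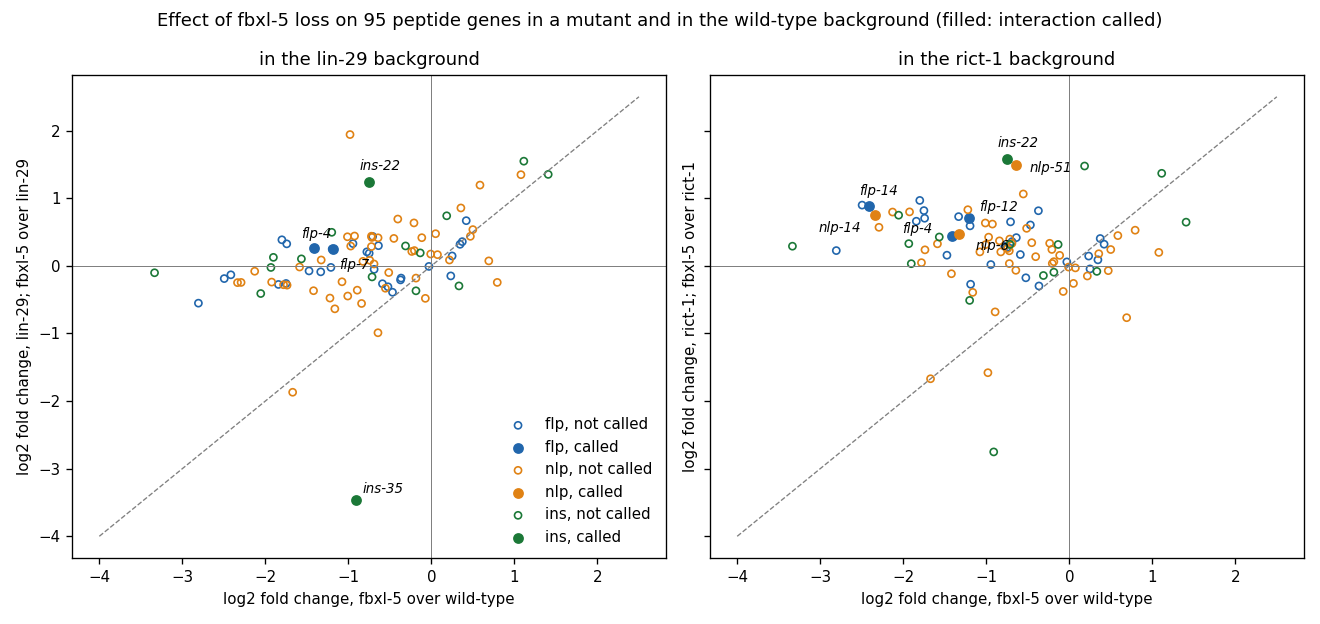
Log2 fold change on loss of *fbxl-5* in the *lin-29* background (left panel, vertical axis: *lin-29; fbxl-5* over *lin-29*) and in the *rict-1* background (right panel, vertical axis: *rict-1; fbxl-5* over *rict-1*) against that in the wild-type background (horizontal axes: *fbxl-5* over wild-type) for the 95 members. Filled, named points are the members whose interaction was called, the dashed line marks equal effects, and most points at negative horizontal values lie above it in both panels.

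In *lin-29* limma called 14 members higher and 4 lower than wild-type (14.7% and 4.21%), where 41% of all genes were called (22.6% higher and 18.4% lower). The higher members were 7 of 16 insulin-like genes (43.8%), 5 of 49 nlp genes (10.2%) and 2 of 30 flp genes (6.67%), so that the share was above that of all genes for insulin-like genes and below it for nlp and flp genes. The members' median log2 fold change was 0.28 (0.71 over insulin-like genes), against -0.01 over all genes. All 3 *lin-29* libraries lay above wild-type in 25 members (30.1% of all genes) and below it in 9 (31% of all genes).

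*ins-27* had 114, 123 and 76.7 normalized counts in *lin-29*, against 14.03, 19.9 and 14.5 in wild-type (log2 fold change 2.61 ± 0.26, adjusted p = 5.45e-07). *ins-4*, a DAF-2 agonist, had 117, 99.2 and 30.1 in *lin-29* and 14.03, 11.7 and 28.2 in wild-type (log2 fold change 2.01 ± 0.53, adjusted p = 0.00403). *lin-29* replicate 3 was the lowest *lin-29* library for both genes, and for *ins-4* it lay just above the highest wild-type value. *ins-7* had 71.9, 93.8 and 36.1 in *lin-29* and 14.03, 17.6 and 16.4 in wild-type (log2 fold change 1.91 ± 0.35, adjusted p = 0.000217). *ins-35* had 35.02, 17.9 and 33.1 in *lin-29* and 3.51, 4.68 and 6.36 in wild-type (log2 fold change 2.31 ± 0.36, adjusted p = 5.34e-05). *ins-23* and *ins-17*, an antagonist-like member, rose as well (log2 fold changes 2.32 and 1.06 with adjusted p = 2.44e-05 and 0.000799).

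*ins-20* had no read in the 3 wild-type libraries and 19.4, 29.5 and 10.5 normalized counts in *lin-29*, which is at least 18.5-fold higher, taking 3 reads over the wild-type group as the floor (adjusted p = 4.25e-05). It passed the filter on low counts only through the *lin-29; fbxl-5* libraries. Not every agonist was higher. *daf-28* had 39.6, 42.9 and 6.02 in *lin-29* and 31.6, 52.7 and 51.8 in wild-type (log2 fold change -0.96 ± 0.61, adjusted p = 0.189), and *ins-6* had 19.4, 26.8 and 4.51 in *lin-29* and 31.6, 30.4 and 38.2 in wild-type (log2 fold change -1.23 ± 0.74, adjusted p = 0.168), with *daf-28* overlapping between genotypes and *ins-6* not.

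**Figure D5:**
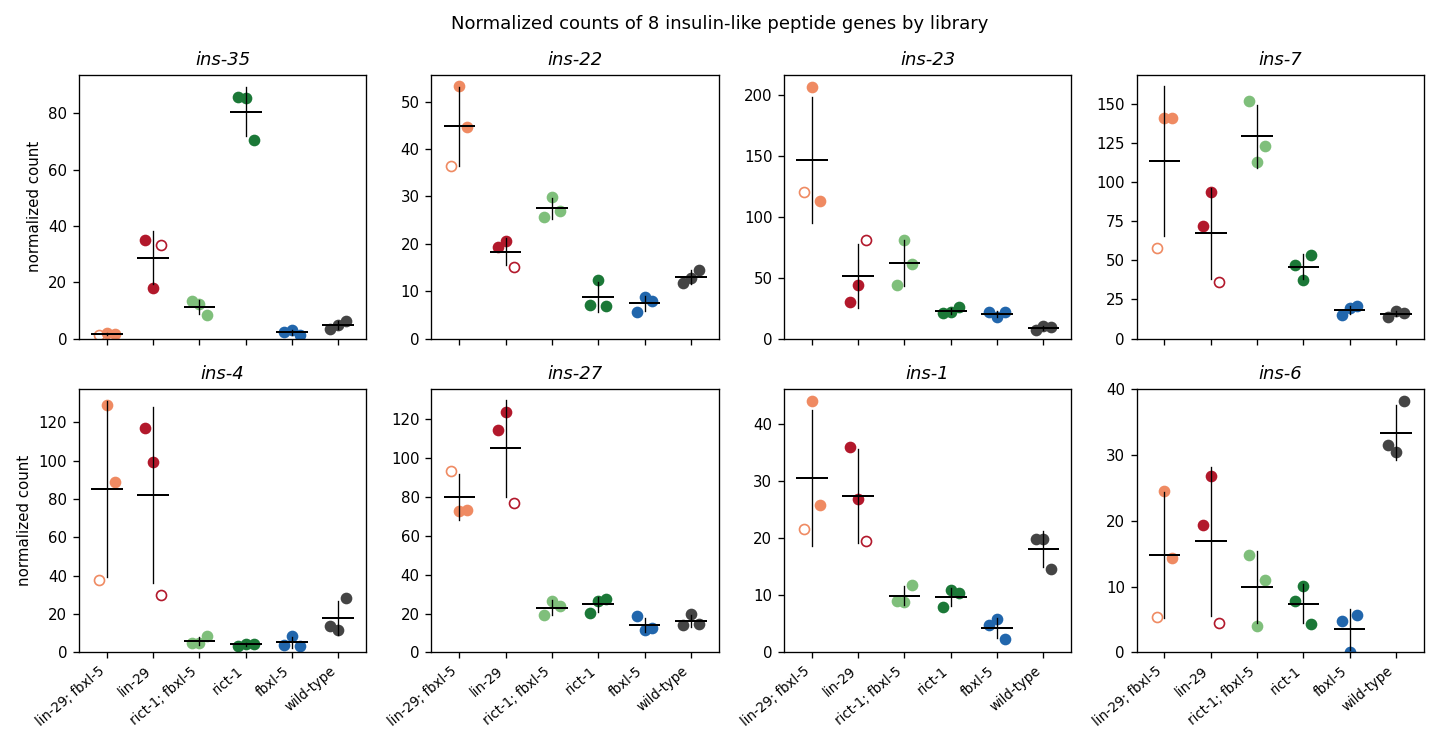
Normalized counts (vertical axes, starting at 0) of *ins-35*, *ins-22*, *ins-23*, *ins-7*, *ins-4*, *ins-27*, *ins-1* and *ins-6* in each library of 6 genotypes (horizontal axes). Points are libraries, bars are the mean and 1 SD (n = 3), and open points are *lin-29* replicate 3 and *lin-29; fbxl-5* replicate 1. *ins-35* is at its highest in *rict-1*, *ins-27* and *ins-4* in the *lin-29* genotypes and *ins-6* in wild-type.

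Among nlp genes, *nlp-25* had 469, 515 and 159 normalized counts in *lin-29*, against 10.5, 10.5 and 9.09 in wild-type (log2 fold change 4.94 ± 0.51, adjusted p = 7.29e-07). *nlp-33*, an antimicrobial-like peptide gene of the epidermis, had 3978, 3717 and 2007 in *lin-29* and 656, 719 and 866 in wild-type (log2 fold change 2.06 ± 0.21, adjusted p = 7.89e-07). Both genes were higher in every *lin-29* library than in any wild-type library. Of 7 hypodermal markers 3 were higher and 1 lower in *lin-29*, with a median log2 fold change of 0.97 (lowest -4.75). Their sum lay between 4044 and 7292 in *lin-29*, against 14419 to 19782 in wild-type. *col-19* weighs most in this sum, with a mean of 8817 normalized counts over all libraries, against at most 1329 for the other markers. The part of these markers in the *nlp-33* result was not tested. *nlp-8*, which acts in sleep after stress, had 399, 404 and 197 in *lin-29* and 94.7, 98.4 and 116 in wild-type (log2 fold change 1.62 ± 0.28, adjusted p = 0.000148). *nlp-62* and *nlp-67* rose by 3.34 and 2.74 on the log2 scale (adjusted p = 7.59e-05 and 0.000102).

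The flp genes that rose were *flp-34*, a neuropeptide Y-like gene, and *flp-10*. *flp-34* had 92.1, 67.9 and 159 normalized counts in *lin-29*, against 21.1, 28.1 and 24.5 in wild-type (log2 fold change 1.99 ± 0.48, adjusted p = 0.00212), and its highest value was that of *lin-29* replicate 3. *flp-10* had 172, 179 and 179 in *lin-29*, against 92.4, 103 and 111 in wild-type (log2 fold change 0.79 ± 0.18, adjusted p = 0.00174), with little spread.

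The 4 members that fell were *nlp-51*, *nlp-56*, *nlp-7* and *flp-6*. *nlp-51* had 33.2, 33.96 and 37.6 normalized counts in *lin-29*, against 87.7, 83.2 and 93.6 in wild-type (log2 fold change -1.31 ± 0.21, adjusted p = 7.51e-05). *nlp-7*, whose peptides inhibit egg laying, had 34.1, 38.4 and 43.6 in *lin-29* and 71.3, 83.2 and 89.04 in wild-type (log2 fold change -1.05 ± 0.29, adjusted p = 0.00624). Neither overlapped. The changes of *nlp-56* and *flp-6* were -1.12 and -0.81 on the log2 scale (adjusted p = 0.00473 and 0.0076). With TMM factors and in edgeR the calls of *flp-6* and *nlp-7* were lost (adjusted p up to 0.0145 and 0.0118), and that of *nlp-56* in a fit of these 2 genotypes alone (adjusted p = 0.0107). Exons of *nlp-56* overlap a less abundant gene on the opposite strand.

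Leaving out single libraries ended the calls of *flp-6*, *flp-10*, *flp-34*, *ins-4*, *nlp-7* and *nlp-56* in at least 1 fit, and those of the other 12 held. Without *lin-29* replicate 3 the calls of *flp-6*, *flp-34* and *nlp-56* were lost (adjusted p up to 0.0326, 0.0116 and 0.0263 over all libraries left out). The count was, without *lin-29* replicates 1, 2 and 3 in turn, 16, 16 and 17, and without wild-type replicates 1, 2 and 3 it was 12, 14 and 15, and without both libraries that stood apart 25 members were higher and 4 lower.

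Animals lacking both *lin-29* and *fbxl-5* had 23 members higher and 3 lower than wild-type, where 39% of all genes were called (19.5% in each direction). All 3 libraries lay above wild-type in 39 members (27.7% of all genes) and below it in 6 (28% of all genes). The higher members were 7 insulin-like, 13 nlp and 3 flp genes, among them *ins-20* and *nlp-39*, which passed the filter only through this genotype, and 13 of the 23 were also called higher in *lin-29*, a comparison with the same wild-type libraries. *ins-23* had 120.3, 207 and 114 normalized counts in *lin-29; fbxl-5*, 30.4, 43.8 and 81.2 in *lin-29* and 7.02, 10.5 and 9.09 in wild-type (double mutant over wild-type: log2 fold change 3.87 ± 0.33, adjusted p = 1.81e-07). *ins-7* had 58.1, 141 and 141 in *lin-29; fbxl-5*, against 14.03, 17.6 and 16.4 in wild-type (log2 fold change 2.65 ± 0.35, adjusted p = 1.09e-05). *ins-20* had 44.6, 91.2 and 27.3 in *lin-29; fbxl-5*, at least 50.9-fold higher than wild-type by the same floor, a description since this genotype set its place among the 95.

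*nlp-12*, a cholecystokinin-like gene of the DVA neuron, had 312, 259 and 206 normalized counts in *lin-29; fbxl-5*, against 31.6, 63.2 and 60.9 in wild-type (log2 fold change 2.34 ± 0.46, adjusted p = 0.000555). For *nlp-12* the libraries that stood apart were the highest of their genotypes, with *lin-29* replicates 1 to 3 at 75.6, 69.7 and 259. *flp-15* had 179.7, 153 and 161 in *lin-29; fbxl-5* and 56.1, 48.02 and 59.97 in wild-type (log2 fold change 1.57 ± 0.31, adjusted p = 0.00048). *nlp-39* had 16.2, 89.1 and 31.6 in *lin-29; fbxl-5* and 3.51, 2.34 and 0 in wild-type (log2 fold change 3.90), likewise a description. Also higher were *nlp-67* (log2 fold change 2.37), *nlp-25* (3.07), *nlp-62* (2.35), *ins-27* (2.24), *flp-34* (1.81) and *flp-10* (0.94). The 3 lower members were *nlp-56*, *nlp-51* and *flp-6* (log2 fold changes -1.05, -0.90 and -0.96 with adjusted p = 0.00769, 0.00209 and 0.00252). Leaving out single libraries ended 10 of the 26 calls in at least 1 fit, and without *lin-29; fbxl-5* replicate 1 these were *flp-34*, *nlp-43* and *nlp-56* (adjusted p up to 0.0203, 0.0279 and 0.042 over all libraries left out). Without both libraries that stood apart 29 were higher and 3 lower. Fitted on these 2 genotypes alone, 19 members were higher and 0 lower, where edgeR on all libraries called 2 lower, DESeq2 3 and limma 4 at an unadjusted p under 0.05.

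Against *lin-29* alone, the double mutant had 2 insulin-like members higher and 1 lower, where 5.82% of all genes were called (1.32% higher and 4.5% lower). The libraries of these genotypes did not overlap in 12 members, 9 of them higher (7.88% of all genes) and 3 lower (11.1% of all genes) in the double mutant. limma called 0 of the 30 flp and 0 of the 49 nlp genes, where 1 and 10 had an unadjusted p under 0.05, edgeR called 0 and 1 and DESeq2 0 and 2. *ins-35* had 1.35, 2.05 and 1.44 normalized counts in *lin-29; fbxl-5*, against 35.02, 17.9 and 33.1 in *lin-29* (log2 fold change -3.46 ± 0.36, adjusted p = 7.14e-06). The libraries were far apart. The double mutant lay below the 3 wild-type libraries too, but on few reads, with 1, 2 and 1 against 3, 4 and 7 in wild-type. *ins-22* had 36.5, 53.3 and 44.6 in *lin-29; fbxl-5* and 19.4, 20.6 and 15.05 in *lin-29* (log2 fold change 1.24 ± 0.29, adjusted p = 0.00892), and *ins-23* gave 1.55 ± 0.33 with an adjusted p of 0.00538. Of the 7 intestinal markers 4 were lower in *lin-29; fbxl-5* than in *lin-29*, where their sums lay between 35468 and 84718 and between 68315 and 85705, and their part in the *ins-35* result was not tested. Fitted on these 2 genotypes alone limma called 0 of the 95 (adjusted p = 0.0194 for *ins-35*), while on all libraries edgeR called 2 higher and 2 lower and DESeq2 2 higher and 3 lower, and without both libraries that stood apart limma called 1 higher and 3 lower. The call of *ins-35* held whichever library was left out. That of *ins-22* was lost in each such fit (adjusted p up to 0.0404), and that of *ins-23* without *lin-29* replicate 1, *lin-29* replicate 2 or *lin-29; fbxl-5* replicate 2 (adjusted p up to 0.0368). The count was, without *lin-29; fbxl-5* replicates 1, 2 and 3 in turn, 3, 1 and 2, and without *lin-29* replicates 1, 2 and 3 it was 1, 1 and 7.

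*ins-35* was lower in both double mutants than in the *lin-29* and *rict-1* single mutants. Between *fbxl-5* (2.41, 2.89 and 1.14 normalized counts) and wild-type its difference was not called (log2 fold change -0.91 ± 0.36, adjusted p = 0.132). The interaction for *lin-29*, the log2 fold change of *lin-29; fbxl-5* over *lin-29* minus that of *fbxl-5* over wild-type, was called for 4 members, where 2.4% of all genes were called (0.713% positive and 1.68% negative). It was negative for *ins-35* (-2.55 ± 0.51, adjusted p = 0.00664) and positive for *ins-22*, *flp-4* and *flp-7* (1.99, 1.68 and 1.43 with adjusted p = 0.0075, 0.00592 and 0.00729). *flp-4* had 70.3, 68.7 and 79.1 normalized counts in *lin-29; fbxl-5* and 60.8, 50.04 and 70.7 in *lin-29*, with 13.7, 24.1 and 19.4 in *fbxl-5* and 58.5, 49.2 and 46.3 in wild-type. *fbxl-5* lay below wild-type, while *lin-29; fbxl-5* and *lin-29* overlapped. edgeR and DESeq2 called the interaction negative for 0 members (4 at an unadjusted p under 0.05 in limma) and positive for 3 and 9, so the *ins-35* call was lost in both (adjusted p up to 0.0644), as it was without both libraries that stood apart, where 13 members were positive and 0 negative. All 4 calls were lost with no filter on low counts and in a fit of these 4 genotypes alone (adjusted p up to 0.0478 in that fit), where with all libraries 42 of the 95 members had an unadjusted p under 0.05. Each was also lost when some single library was left out, with 0 calls without *lin-29* replicate 1, wild-type replicate 1, wild-type replicate 2 or *fbxl-5* replicate 1 and 9 without *lin-29; fbxl-5* replicate 1.

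The machinery that makes these peptides was compared from lists of genes chosen by function. In *fbxl-5*, 3 of 9 processing enzymes and cofactors fell and 0 rose, with a median log2 fold change of -0.73. Of all genes, 1.97% were called lower and 0.586% higher there. The 3 enzymes and cofactors were *pgal-1*, a peptide amidating enzyme (-1.57, adjusted p = 0.00267), *sbt-1*, the chaperone of the convertase EGL-3 (-1.002, adjusted p = 0.00361), and *egl-21*, the carboxypeptidase that trims cut precursors (-0.73, adjusted p = 0.00731). edgeR and DESeq2 gave 0 higher as well, as did an unadjusted p under 0.05 in limma. The convertase gene *egl-3* itself gave -0.91, adjusted p = 0.0132. In *rict-1*, *pgal-1* (-1.27, adjusted p = 0.00269) and *egl-21* (-0.57, adjusted p = 0.00958) fell and *kpc-1*, a furin-like convertase, rose (0.88, adjusted p = 1.49e-05). Of all genes, 5.78% were called lower and 10.7% higher in *rict-1*. In *rict-1; fbxl-5* limma and edgeR called 0 of the 9 and DESeq2 1 higher, and 3 had an unadjusted p under 0.05 in limma.

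The 6 other peptide genes tested, outside the naming rule, all had negative log2 fold changes in *fbxl-5*, between -1.77 and -0.92. Of these limma called 1, *pdf-1* of the pigment dispersing factor family (-1.49, adjusted p = 0.00499). *pdf-1* had 102, 101 and 141 normalized counts in the *fbxl-5* libraries, against 304, 341 and 315 in the wild-type libraries, without overlap. All 6 genes were negative over wild-type in *rict-1* too (between -1.72 and -0.72) and in *rict-1; fbxl-5* (between -1.65 and -0.04). In *lin-29* they lay between -0.27 and 0.64. Of 9 dense core vesicle genes, limma and edgeR called 0 in *fbxl-5* and DESeq2 1 lower (2 at an unadjusted p under 0.05 in limma), with a median of -0.06. In *lin-29*, 3 of these rose, where 22.6% of all genes were called higher, among them the vesicle protein gene *ida-1* (0.95, adjusted p = 0.000104).

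Receptors were compared in the same way. In *fbxl-5*, of 61 receptor genes tested limma, edgeR and DESeq2 called 0 (10 at an unadjusted p under 0.05 in limma, median -0.06), while 5 were higher and 3 lower in *lin-29*, where 41% of all genes were called, and 4 were higher and 1 lower in *rict-1*, where 16.4% were. Of 14 pan-neuronal markers, the 3 tools called 0 in *fbxl-5* and 0 in *rict-1* (3 each at an unadjusted p under 0.05 in limma), with medians of -0.16 and -0.08, and in *lin-29* 2 were higher and 1 lower.

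The 39 members under the filter were fitted without it. In that fit of 24998 genes, *lin-29* had 4 of them higher and 2 lower than wild-type, *lin-29; fbxl-5* had 4 higher and 1 lower, *rict-1* had 1 of each, *rict-1; fbxl-5* had 1 lower and *fbxl-5* had 0 (10 at an unadjusted p under 0.05 in limma, other tools not run), where between 1.28% and 22.3% of all genes were called. *ins-11*, an intestinal insulin-like gene, had 20.3, 38.9 and 27.3 normalized counts in *lin-29; fbxl-5* and 12.9, 7.15 and 19.6 in *lin-29*, with no read in wild-type. These are at least 27.01-fold and 12.4-fold higher by the floor of 3 reads over the wild-type group. *ins-31*, chosen after its values were seen, was seen in wild-type (21.1, 8.20 and 18.2) and varied widely in *fbxl-5* (0.803, 36.6 and 16). It had at most 2.48 normalized counts in any library of the other 4 genotypes. *ins-33* had 2.70, 10.2 and 14.4 in *lin-29; fbxl-5*, 15.7, 46.5 and 10.5 in *lin-29* and 7.02, 8.20 and 7.27 in wild-type, and was not called in that fit.

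The low values of the libraries that stood apart were set beside the differences of other genotypes from wild-type. Across the 95 members, the log2 difference of *lin-29* replicate 3 from the mean of replicates 1 and 2 correlated with the log2 fold change of *fbxl-5* over wild-type with Pearson's r = 0.571, against 0.214 across the 13377 other genes tested. The members' r was 0.55 with *rict-1* over wild-type and 0.553 with *rict-1; fbxl-5* over wild-type, so the likeness was not particular to *fbxl-5*. For *lin-29; fbxl-5* replicate 1 the members' r was 0.31 with *fbxl-5*, 0.28 with *rict-1* and 0.227 with *rict-1; fbxl-5* over wild-type, against 0.148 with *fbxl-5* across the other genes. The deviations and these differences have no library in common, but genes within a library are not replicates and no p is attached. *flp-13* had 18.9, 66.6 and 63.3 normalized counts in *lin-29; fbxl-5* and 133, 115 and 16.6 in *lin-29*, with the low value of each genotype nearer to *fbxl-5* and the others nearer to wild-type. What set these libraries apart was not tested.

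Members lay on all 6 chromosomes, with 25 of the 95 on X. In the WBcel235 annotation 9 pairs of tested members lie within 10 kb of each other, among them *ins-3*, *ins-4*, *ins-5*, *ins-6* and *ins-20* in a row on chromosome II and *ins-22* and *ins-23* on chromosome III. In *lin-29*, *ins-4* and *ins-20* rose, while *ins-6* gave -1.23 and *ins-3* -1.91, both not called. *ins-22* and *ins-23*, 1561 bases apart, were both higher in *lin-29; fbxl-5* than in *lin-29*. Exon lengths of the members ran from 240 to 1732 bases with a median of 589. For *fbxl-5* over wild-type the median over the 1364 other genes with lengths between the members' quartiles was -0.01.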

How the data were processed

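Whole-animal polyadenylated RNA of 18 libraries (6 genotypes, 3 each) was sequenced single-end with a kit that does not mark strand. The authors aligned reads to the WS260 genome with STAR, counted them per gene with featureCounts (Subread) and divided the counts by DESeq2 size factors (versions not given in the sources used here); the deposited signal is this normalized count per gene. Every per-sample column was used (0 were left out). The 7 deposited comparison tables, which hold the authors' fold changes and p-values, were not used. Dividing by each library's smallest step gave whole reads for 100% of values (tolerance 1e-06), between 13434120 and 29733059 per library, and that number limits the precision of low genes; floors cover counting error only.

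Genes with a mean of at least 10 normalized counts (13472 of 24998) were fitted as log2(normalized count + 1) with limma 3.58.1 in R 4.3.3, with genotype as the only term and all 18 libraries; fold changes are on that scale, which understates the change of low genes. P-values were adjusted by Benjamini-Hochberg over all genes tested, with a threshold of 1% FDR, and the scripts were tested on simulated data. Alternatives were pseudocounts of 0.5 and 5, no filter, a filter at 50, TMM factors, a replicate block, edgeR 4.0.16 and DESeq2 1.42.0 on the recovered reads, fits of the compared genotypes alone, 5% FDR and leaving out each library. The replicate block within compared genotypes and the fit without both libraries that stood apart were added after the values were seen.

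Same-numbered *rict-1; fbxl-5* and *rict-1* libraries deviated together (correlations 0.646, 0.394 and 0.237 across genes), so that their numbers pair them; this comes from the values, not the labels. In the other comparisons with wild-type or *lin-29* at least 1 correlation was under 0.1. Genes were named by a rule: a set with known roles, the called members with the largest changes of each prefix, the highest per kb in wild-type and those called in an interaction. The members, lists and rule were chosen with earlier results of these data known. *nlp-43*, *ins-5* and *ins-31* fell outside it and were chosen after their values were seen.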

Additional observations from a re-analysis of the deposited data

Results flagged for a closer look

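The effect of *fbxl-5* loss differed between backgrounds, by limma's test of the interaction at 1% FDR, for 4 members in the *lin-29* background and 7 in the *rict-1* background. In the *lin-29* background the difference of log2 fold changes was 1.68 for *flp-4*, 1.43 for *flp-7*, 1.99 for *ins-22* and -2.55 for *ins-35*. In the *rict-1* background it was 1.85 for *flp-4*, 1.92 for *flp-12*, 3.29 for *flp-14*, 2.34 for *ins-22*, 1.80 for *nlp-6*, 3.08 for *nlp-14* and 2.13 for *nlp-51*. *flp-4* and *ins-22* were called in both, and both tests used the same *fbxl-5* and wild-type libraries. When single libraries were left out, only the calls of *flp-14* and *nlp-51* in the *rict-1* background held each time. That of *flp-12* was lost each time. With 3 libraries per genotype no single library was tested for its distance from the others.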

How the results depend on the processing

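A pseudocount of 0.5 or 5, TMM factors, edgeR and the replicate block over all 18 libraries left the count of called members within 1.5 times of that reported in every comparison. With a filter at a mean of 50, which left 48 members, limma called 11 in *lin-29*, 16 in *lin-29; fbxl-5*, 8 in *rict-1* and 5 in *fbxl-5* over wild-type, 1 in *lin-29; fbxl-5* over *lin-29*, 0 in *rict-1; fbxl-5* over *rict-1*, and 1 and 3 in the *lin-29* and *rict-1* interactions. DESeq2 called 10 members in *rict-1; fbxl-5* and 21 in *fbxl-5* over wild-type, 5 in each double mutant over its single mutant, and 9 and 20 in the *lin-29* and *rict-1* interactions. At 5% FDR there were 28 members in *lin-29*, 16 in *rict-1; fbxl-5*, 27 in *rict-1* and 25 in *fbxl-5* over wild-type, 5 in each double mutant over its single mutant, and 13 and 18 in the interactions. With no filter the *lin-29* interaction had 0.

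Fitted on the compared genotypes alone, the counts were 24 in *rict-1; fbxl-5*, 31 in *rict-1* and 36 in *fbxl-5* over wild-type, 0 in *lin-29; fbxl-5* over *lin-29*, and 0 and 32 in the *lin-29* and *rict-1* interactions. With the replicate block added to those fits (chosen after seeing the data) they were 16 in *lin-29; fbxl-5*, 26 in *rict-1; fbxl-5*, 39 in *rict-1* and 39 in *fbxl-5* over wild-type, 0 in *lin-29; fbxl-5* over *lin-29*, 16 in *rict-1; fbxl-5* over *rict-1*, and 0 and 35 in the interactions. Numbers pair libraries only in *rict-1; fbxl-5* and *rict-1*, so for the other comparisons the block rests on shared numbers. Without both libraries that stood apart (also chosen after seeing the data) the counts were 29 in *lin-29*, 18 in *rict-1; fbxl-5*, 34 in *rict-1* and 34 in *fbxl-5* over wild-type, 7 in *rict-1; fbxl-5* over *rict-1*, and 13 and 27 in the interactions. TMM factors turned the split of higher and lower members to 15 and 2 in *lin-29* (14 and 4 as reported) and to 4 and 2 in *rict-1; fbxl-5* (3 and 3 as reported).

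Leaving out single libraries gave 18 to 26 members in *lin-29; fbxl-5*, 12 to 17 in *lin-29*, 2 to 3 in *rict-1; fbxl-5*, 8 to 9 in *rict-1* and 2 to 5 in *fbxl-5* over wild-type, 1 to 7 in *lin-29; fbxl-5* over *lin-29*, 2 to 3 in *rict-1; fbxl-5* over *rict-1*, and 0 to 9 and 2 to 6 in the interactions. Of single results of the 50 named members, 222 lost and 12 gained a call when a library was left out and 3066 did neither; under the other settings 80 lost and 277 gained a call and 4854 did neither. None of their called directions reversed. What set the larger counts of the smaller fits was not tested. Members with few reads, among them *ins-1*, *ins-6* and *ins-20*, have large counting error, and the 39 members under the filter were tested only without it.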
